A study of Mus musculus with 12 samples.

Results

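The proteasome genes described here are the 46 genes on the array whose symbol is Psma, Psmb, Psmc, Psmd, Psme, Psmf or Psmg followed by a number, out of 24477 genes tested. The rule uses names only and no measured value. 48 mouse symbols in the RefSeq gene table follow this pattern, and Psmb3 and Psmb5 were not analysed here. The 46 genes comprise 7 subunits of the alpha ring of the 20S core, 3 structural beta subunits, 2 constitutive catalytic beta subunits (Psmb6 and Psmb7), the 3 catalytic subunits of the immunoproteasome (Psmb8, Psmb9 and Psmb10) and 2 tissue-restricted core subunits (Psma8 and Psmb11). Of the 19S cap they comprise 6 ATPases and 3 non-ATPase subunits of the base and 8 subunits of the lid. The others are 3 chaperones of 19S assembly, 4 chaperones of 20S assembly, 4 activators and 1 inhibitor.

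Laser microdissection provided tongue epithelium of 12 male CBA mice, whose amplified RNA was read on 12 Affymetrix arrays of the type Mouse Gene ST 2.0. Hyperplasia, dysplasia and tumor came from 3 mice each. These 9 mice had drunk water with the carcinogen 4-NQO (100 ug/mL) over 8 weeks, whereas the 3 mice with normal mucosa had not. The mice were 24, 12 and 20 weeks old for normal 1, 2 and 3, 20, 16 and 20 weeks for hyperplasia, 16, 24 and 16 weeks for dysplasia and 20, 16 and 24 weeks for tumor. No 4-NQO-treated mouse without a lesion was measured, so that treatment and lesion cannot be told apart in any comparison with normal mucosa. All values are log2 expression values as deposited, and a difference of 1 on this scale is a 2-fold difference.

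The proteasome is the protease that degrades proteins marked with ubiquitin. In its 20S core, alpha rings gate access to beta rings that carry the catalytic sites, and the 19S cap recognizes ubiquitin, unfolds the substrate with its ATPases and feeds it into the core. Interferons induce Psmb8, Psmb9 and Psmb10, which take the places of Psmb5, Psmb6 and Psmb7 in newly built cores. The resulting immunoproteasome favors peptides that fit MHC class I molecules. It is abundant in immune cells and can be induced in epithelial cells. In bulk samples, a larger share of cells of one type and more RNA per cell cannot be told apart.

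Dysplasia 1 and tumor 1 stood apart from the other samples in interferon genes. The mean of 25 interferon genes was 8.78 in dysplasia 1 and 7.25 in tumor 1, against 5.52 to 6.28 in the other samples. T and NK cell markers (14 genes) had a mean of 6.71 in dysplasia 1, 5.83 and 5.74 in dysplasia 2 and 3, and 5.28 to 5.63 elsewhere. Keratinocyte markers (12 genes) were at 11.04 to 11.48 in every sample, as the label epithelium implies. Skeletal muscle markers (12 genes) were at 9.62, 6.38 and 8.82 in normal 1, 2 and 3, from 6.61 to 9.46 in hyperplasia and from 5.83 to 7.28 in dysplasia and tumor. RNA integrity, from the study's sample records, was higher in every tumor than in every normal sample. The paper reports that RNA integrity did not differ significantly between the stages. Fits with RNA integrity as a covariate cannot fully tell it apart from the step from normal mucosa to tumor. RNA was prepared on 8 different days. Results for the immunoproteasome are given below with and without dysplasia 1 and tumor 1.

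Promoters are shown for Psmb9 and Psmb8, the immunoproteasome genes with the largest SDs within dysplasia and within tumors. They are also shown for Psma1 and Psma2, the genes with the largest differences among those that passed the test. Each is the 200 bases before the RefSeq start site in GRCm38.p6, on the strand of the gene, with matches to a CCAAT box (CCAAT) or a gamma-activated site (TTCNNNGAA) in capitals, on either strand. Psmb9 lies on chr17:34187331-34187530 (minus strand), Psmb8 on chr17:34197995-34198194 (plus strand), Psma1 on chr7:114276117-114276316 (minus strand) and Psma2 on chr13:14613042-14613241 (plus strand).
Psmb9: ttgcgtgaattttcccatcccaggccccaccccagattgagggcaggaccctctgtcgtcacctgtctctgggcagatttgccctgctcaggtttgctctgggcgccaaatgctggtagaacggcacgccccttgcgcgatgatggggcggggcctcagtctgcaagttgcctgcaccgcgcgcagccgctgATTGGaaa
Psmb8: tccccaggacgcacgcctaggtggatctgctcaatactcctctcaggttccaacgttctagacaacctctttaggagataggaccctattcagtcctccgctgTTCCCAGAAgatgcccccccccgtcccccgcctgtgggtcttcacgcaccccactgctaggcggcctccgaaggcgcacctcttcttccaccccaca
Psma1: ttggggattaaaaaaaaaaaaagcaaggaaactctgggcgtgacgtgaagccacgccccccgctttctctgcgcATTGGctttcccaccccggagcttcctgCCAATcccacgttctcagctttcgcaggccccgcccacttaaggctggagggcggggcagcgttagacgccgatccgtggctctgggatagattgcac
Psma2: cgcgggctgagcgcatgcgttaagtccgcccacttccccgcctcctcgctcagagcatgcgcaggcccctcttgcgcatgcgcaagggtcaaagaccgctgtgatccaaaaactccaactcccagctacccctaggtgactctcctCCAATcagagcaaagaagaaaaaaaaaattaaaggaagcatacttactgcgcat
Psmb8 has 1 gamma-activated site, which begins at -97 from the start. Psma1 has matches to the CCAAT box at -126 and -98, Psma2 at -54 and Psmb9 at -8. Windows of 250 bases before to 50 after the start were given for 38 of the 46 genes, and for none of Psma8, Psmb1, Psmb2, Psmb7, Psmc3, Psmd3, Psmd7 and Psmg2. A CCAAT box was in 34.2% of these 38 genes and in 41.1% of all 27025 genes with a window. The gamma-activated site, the letters bound by activated STAT factors, was in 7.89% against 9.55%. The core of the interferon-stimulated response element (GAAANNGAA) was in 15.8% against 9.76%. It was in Psmb4, Psmc2, Psmd4, Psmd9, Psme1 and Psmg4, and in none of Psmb8, Psmb9 and Psmb10. In Psme1 it begins at 11 after the start. The core of the antioxidant response element (TGACNNNGC), where NFE2L1 and NRF2 bind, was in 13.2% against 14%. It was in Psmb6, Psmc6, Psmd9, Psmd12 and Psme4. A gene was counted when any of its windows held the letters on either strand, and these are matches of letters only.

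Most proteasome genes had a higher mean in the lesions than in normal mucosa. Between tumor and normal mucosa, 40 of 46 had a difference above 0, against 44.3% of all genes, and the median difference was 0.37, against -0.05 for all genes. With RNA integrity as a covariate, 36 of 46 had a tumor difference above 0, against 48% of all genes, and the median was 0.21. Medians by role ran from -0.33 in the tissue-restricted core subunits, which lay at low levels, to 1.15 in the immunoproteasome. The latter was 0.49 without dysplasia 1 and tumor 1, and differences between roles were not tested. The median of the 46 genes was 0.35 in hyperplasia and 0.34 in dysplasia, so that the step of this size was already present at the first lesion stage. From hyperplasia to dysplasia the median was 0.00, and from dysplasia to tumor it was 0.03. These comparisons with normal mucosa share the same 3 control mice.
In more than 1 of every 2 proteasome genes the tumor samples lay above the normal samples without overlap. Every tumor was above every normal sample in 27 of 46 genes, where 10.3% of all genes showed this, and in no proteasome gene was every tumor below every normal sample, where 13% of all genes showed this. Every one of the 9 lesion samples was above every normal sample in 8 genes, Psma1, Psma2, Psma7, Psmb4, Psmb10, Psmc2, Psmd11 and Psme4, against 1.97% of all genes. Without dysplasia 1 and tumor 1 these counts were 33 and 14 of 46, against 14.8% and 3.68% of all genes. Proteasome genes are bright on the array, and bright genes were more often higher in tumors. Of the 1723 genes with a mean above 9, a level chosen after the values were seen, 32.8% had no overlap in this direction, against 20 of the 29 proteasome genes among them. A difference above 0 was found in 69.9% of these bright genes and in 27 of the 29. Every lesion sample was above every normal sample in 8.13% of these bright genes and in 7 of the 29.

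**Figure D1:**
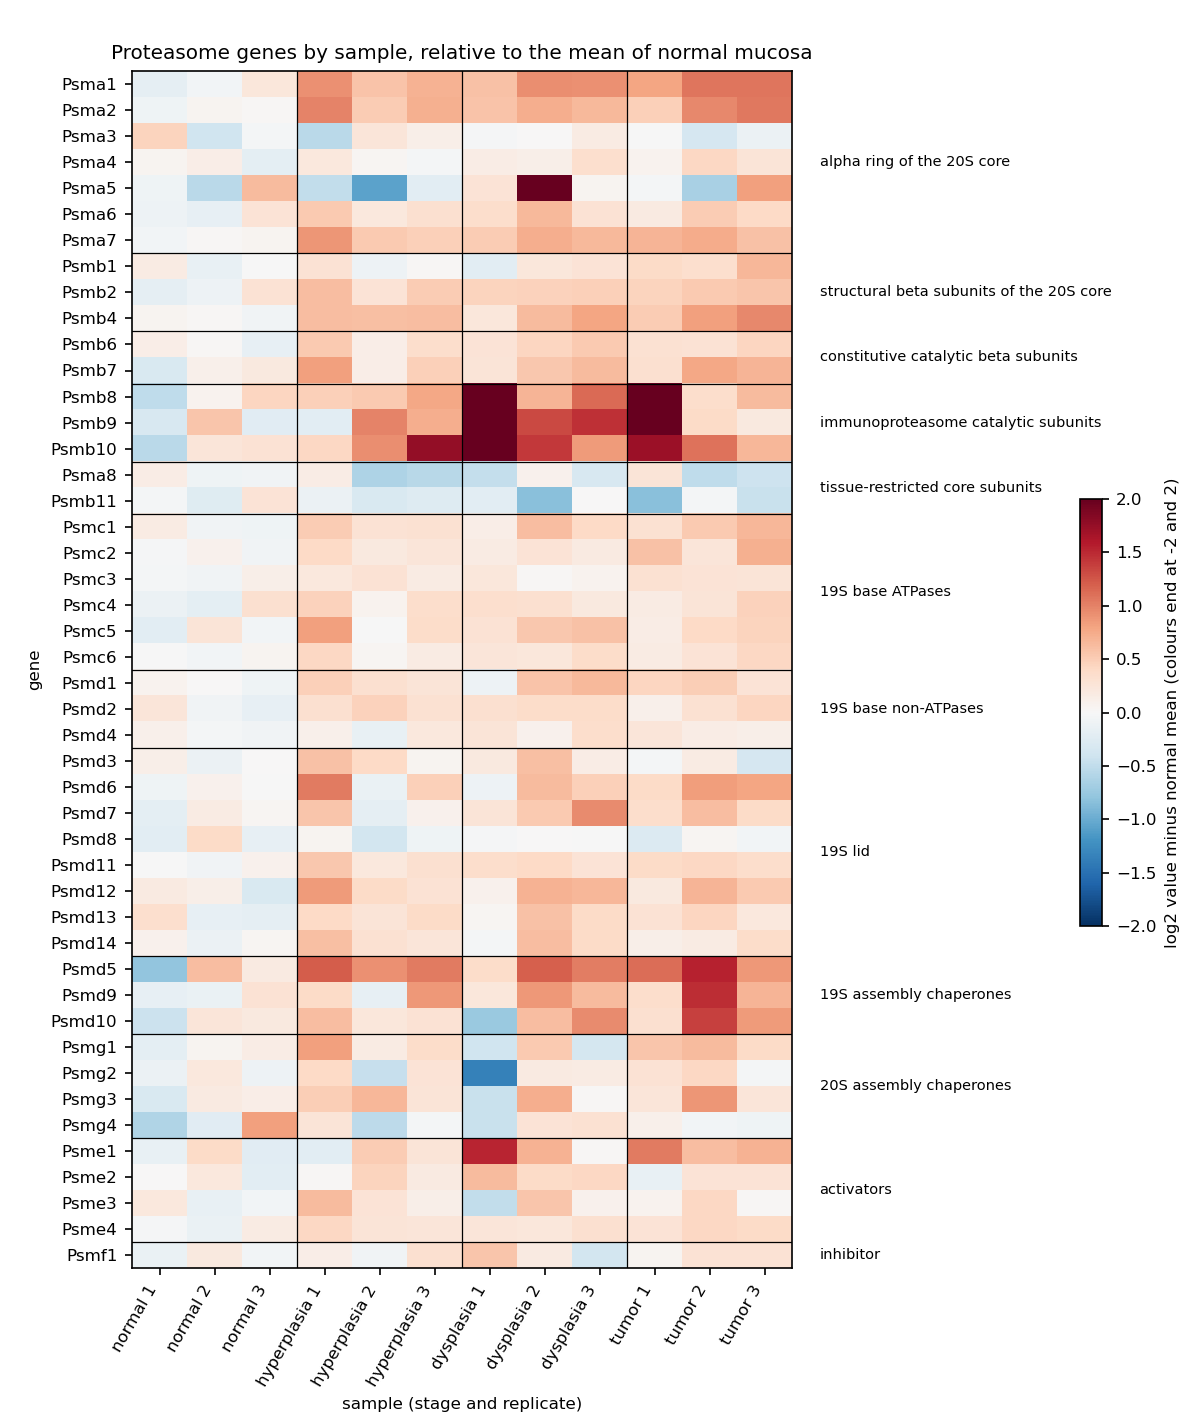
Log2 values of the 46 proteasome genes (rows, by role) in the 12 samples (columns, by stage), each minus the mean of the 3 normal samples of that gene; red is higher and blue lower, and colors end at -2 and 2. In 39 rows at least 7 of the 9 lesion samples are above the normal mean, and in 21 rows all 9 are. Of the immunoproteasome rows, Psmb8 and Psmb9 are darkest in dysplasia 1 and tumor 1 and Psmb10 in dysplasia 1 and hyperplasia 3.

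Few of these differences passed the test. With limma and Benjamini-Hochberg adjustment over all 24477 genes at 0.05, 1 of 46 proteasome genes, Psma1, was higher in tumors, where 0.744% of all genes were, and none was lower. In the mean of the 3 lesion stages against normal mucosa, 3 were higher, Psma1, Psma2 and Psma7, where 0.788% of all genes were. No proteasome gene passed in hyperplasia, where 0.0204% of all genes were higher, or in dysplasia, where 0.261% were. None passed from hyperplasia to dysplasia (0% of all genes in either direction), from dysplasia to tumor (0.00409%) or in the F test of any difference among the 4 stages (0.646%). At an unadjusted p under 0.05 the count was 8 of 46 in hyperplasia, against 9.76% of all genes, and 15 in dysplasia, against 12.2%. It was 7 in the F test (11.8% of all genes), 2 from hyperplasia to dysplasia (4.54%) and 1 from dysplasia to tumor (6.34%), and in both of these steps the share of proteasome genes was no larger than that of all genes. The methods' t-test after Benjamini-Hochberg gave 0 in each of these 5 comparisons. The study defined differential expression as an absolute difference of means over 1. By this rule 4 proteasome genes were higher in tumors (Psmb8, Psmb9, Psmb10 and Psmd5), where 2.4% of all genes were. It gave 2 in hyperplasia (Psmb10 and Psmd5; 1.12% of all genes) and 3 in dysplasia (Psmb8, Psmb9 and Psmb10; 1.84%). None of these 4 genes passed the limma test, and Psma1, Psma2 and Psma7 stayed below a difference of 1.

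**Figure D2:**
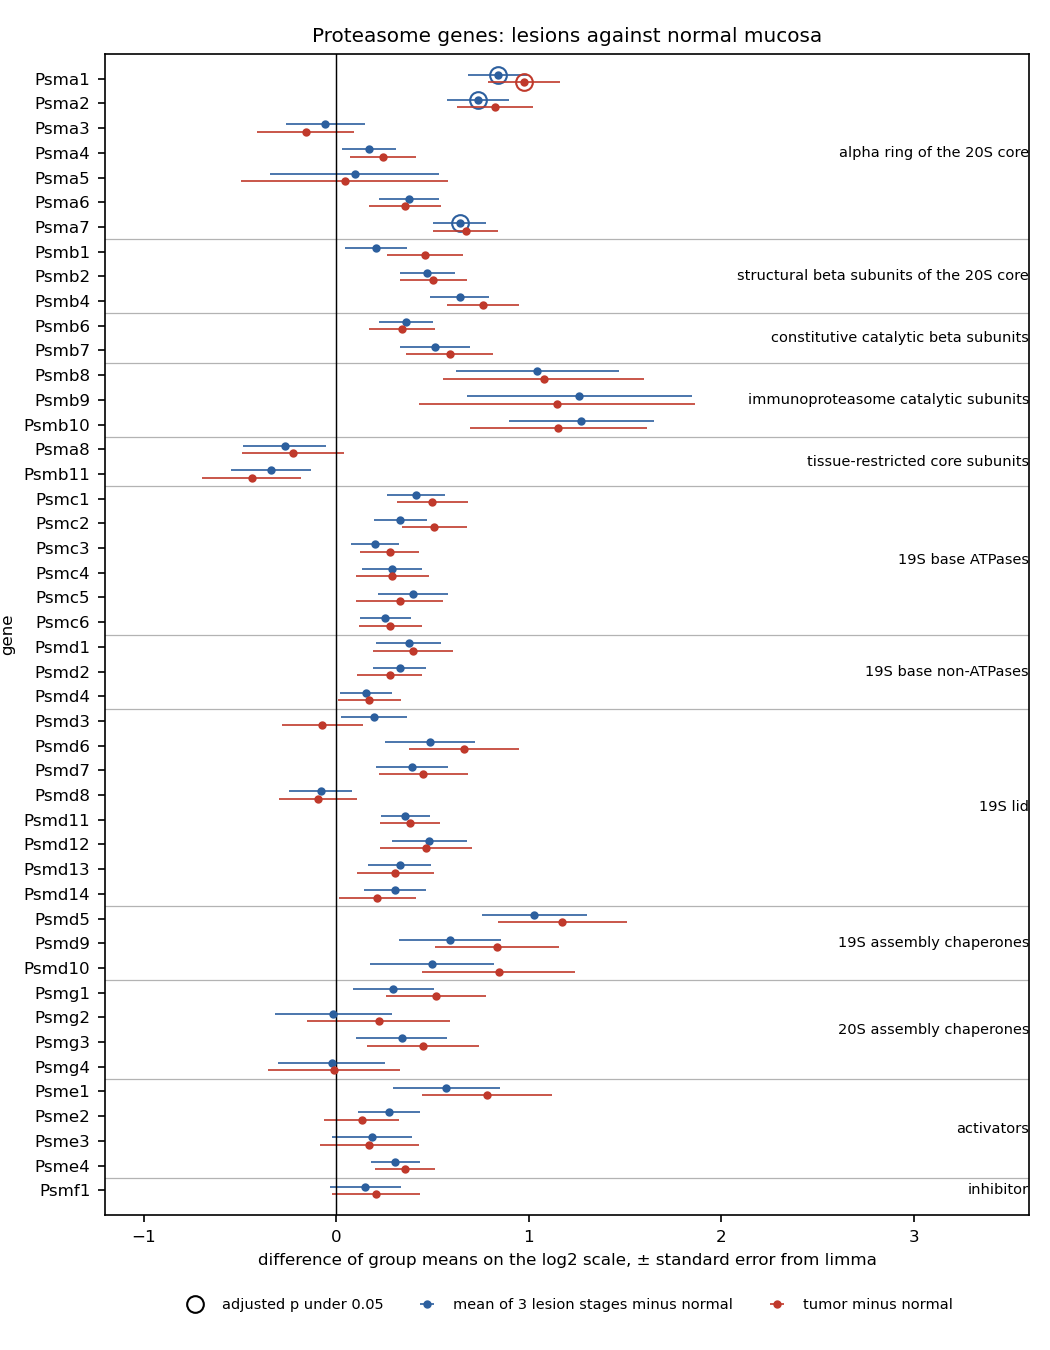
Differences of group means on the log2 scale (x axis) for the 46 proteasome genes (y axis, by role), for the mean of the 3 lesion stages minus normal (blue) and tumor minus normal (red), with standard errors from limma; open circles mark an adjusted p under 0.05. Psma1 is circled in both, Psma2 and Psma7 in blue only, and the immunoproteasome genes have larger differences with wider errors.

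All 3 genes that passed the test belong to the alpha ring. The beta subunit Psmb4 had a lesion difference as large as that of Psma7, 0.64, and narrowly missed the threshold (adjusted p = 0.0562 by limma). Psma1 encodes an alpha ring subunit and was at 9.41, 9.52 and 9.81 in normal mucosa, 10.50, 10.15 and 10.28 in hyperplasia, 10.17, 10.51 and 10.49 in dysplasia and 10.37, 10.65 and 10.65 in tumors. Every lesion sample lay above every normal sample, and the lesion stages overlapped with each other. Psma1 rose 1.97-fold in tumors, a log2 difference of 0.98 with a standard error of 0.19 (limma, adjusted p = 0.0231), and 1.79-fold in the mean of the lesions (0.84 ± 0.15 SE, adjusted p = 0.017). The tumor call was lost without normal 1, normal 2, tumor 1, tumor 2 or tumor 3 (adjusted p from 0.0513 to 0.0848), and the lesion call without normal 1 or normal 2 (0.104 and 0.0824). With RNA integrity as a covariate the tumor difference was 0.74 and did not pass (adjusted p = 0.273), and with the preparation day as a fixed block it was 0.84 and did not pass (adjusted p = 0.422). Tumor 1 and normal 2 are the only tumor and normal samples prepared on the same day, so the blocked difference rests on that pair.
Psma2, which encodes another subunit of the ring, was at 9.28, 9.42 and 9.39 in normal mucosa and at 9.84 to 10.42 in the 9 lesion samples, with a median of 10.08. The groups did not overlap. It rose by 0.74 in the mean of the lesions (limma, 0.16 SE, adjusted p = 0.0381), and its difference in tumors alone was 0.83 (adjusted p = 0.0545). Psma7 was at 10.62, 10.70 and 10.73 in normal mucosa and at 11.15 to 11.57 in lesions, with a median of 11.33, and again no lesion sample overlapped with normal mucosa. It rose by 0.64 in the mean of the lesions (0.14 SE, adjusted p = 0.0365), and its tumor difference was 0.67 (adjusted p = 0.0636). Both lesion calls were lost without any 1 of the normal samples, hyperplasia 1, dysplasia 2, dysplasia 3, tumor 2 or tumor 3, that of Psma2 also without hyperplasia 3 and that of Psma7 also without tumor 1 (adjusted p from 0.0634 to 0.165 for Psma2 and from 0.0549 to 0.151 for Psma7). With RNA integrity as a covariate the lesion differences of Psma1, Psma2 and Psma7 were 0.69, 0.57 and 0.55, with adjusted p = 0.113, 0.205 and 0.19.
The ring was not uniform. Psma6 and Psma4 had tumor differences of 0.36 and 0.24, and Psma3 of -0.16 (adjusted p = 0.804), with normal samples at 9.47, 8.61 and 8.98 and tumors at 9.005, 8.69 and 8.90. Psma3 thus overlapped fully between the groups. Psma5 was at 3.55 to 6.79 in all samples, mostly below the lower quartile of the arrays (5.01 to 5.27), so that little can be read from its difference of 0.05. Its highest value, 6.79 in dysplasia 2, stood alone.

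The structural and constitutive catalytic beta subunits had tumor differences from 0.35 to 0.76, and none passed. Psmb4, a structural beta subunit, was at 10.99, 10.96 and 10.86 in normal mucosa, 11.56, 11.53 and 11.55 in hyperplasia, 11.17, 11.58 and 11.72 in dysplasia and 11.44, 11.76 and 11.90 in tumors. All lesion samples were above all normal samples, with a tumor difference of 0.76 (SE 0.19) that missed the threshold (adjusted p = 0.0627 by limma). It passed without dysplasia 1 and tumor 1 (0.90, adjusted p = 0.0426), without dysplasia 1 alone (adjusted p = 0.0351), with dim probe sets left out (adjusted p = 0.0397) and with an intensity trend (adjusted p = 0.0393), and missed the threshold without any other 1 sample. The difference was 0.55 with RNA integrity as a covariate (adjusted p = 0.455) and 0.48 with the fixed day block (adjusted p = 0.693). Psmb2 and Psmb1 had tumor differences of 0.51 and 0.46, and in both every tumor was above every normal sample. Among the catalytic subunits, Psmb6, which cleaves after acidic residues, was at 11.16, 11.05 and 10.85 in normal mucosa and 11.33, 11.32 and 11.45 in tumors, a difference of 0.35 (SE 0.17, adjusted p = 0.331). Psmb7, which cleaves after basic residues, was at 10.20, 10.61 and 10.69 in normal mucosa and 10.83, 11.27 and 11.17 in tumors, a difference of 0.59 (SE 0.22, adjusted p = 0.209). Neither overlapped between tumor and normal mucosa. The 12 constitutive subunits of the core had a median tumor difference of 0.48, and in 8 of them every tumor was above every normal sample, against 10.3% of all genes and 32.8% of the bright ones.
The tissue-restricted core subunits lay at low levels. Psma8, known from the testis, was at 4.49 to 5.36 and Psmb11, known from thymic cortical epithelium, at 4.83 to 5.93, close to the lower quartile of the arrays. Their tumor differences were -0.22 (adjusted p = 0.718 by limma) and -0.44 (adjusted p = 0.417).

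The 17 subunits of the 19S cap had a median tumor difference of 0.31, none passed, and in 11 every tumor was above every normal sample, against 10.3% of all genes and 32.8% of the bright ones. All 6 ATPases of the base, Psmc1 to Psmc6, had differences above 0, from 0.28 to 0.51. Psmc2 was the largest of them, at 9.03, 9.13 and 8.98 in normal mucosa and 9.63, 9.29 and 9.75 in tumors (0.51, SE 0.17, adjusted p = 0.15 by limma). Psmc3 was the smallest, at 10.16, 10.13 and 10.32 in normal mucosa and 10.52, 10.47 and 10.47 in tumors (0.28, adjusted p = 0.377). No tumor value of either gene overlapped with normal mucosa. Of the base subunits that are not ATPases, the scaffold subunit Psmd1 differed by 0.40 (adjusted p = 0.351) and the ubiquitin receptor Psmd4 by 0.17 (adjusted p = 0.64).
The lid, which holds the deubiquitinase Psmd14, was less even. Psmd6 was at 9.05, 9.22 and 9.13 in normal mucosa and 9.51, 9.97 and 9.92 in tumors, the largest difference of the lid (0.67, SE 0.29, adjusted p = 0.262 by limma), but hyperplasia 2 and dysplasia 1, at 9.00 and 9.04, were below every normal sample. Psmd11 had a smaller difference, 0.39, and every lesion sample above normal mucosa. Psmd3 and Psmd8 had tumor differences of -0.07 and -0.09. In Psmd8 the highest sample of all was normal 2, at 10.91, against 10.31 and 10.37 in normal 1 and 3 and 10.16 to 10.58 in the lesions.
The chaperones of 19S base assembly had the next largest tumor median after the immunoproteasome, 0.85. In all 3 every tumor was above every normal sample, where 10.3% of all genes showed this. Psmd5 was at 5.89, 7.30 and 6.87 in normal mucosa, 7.89, 7.60 and 7.72 in hyperplasia, 7.06, 7.87 and 7.71 in dysplasia and 7.81, 8.22 and 7.55 in tumors. Only dysplasia 1 of the lesions fell within the normal range, and normal 1 was far below normal 2 and 3. The tumor difference was 1.17 (SE 0.34, adjusted p = 0.0952 by limma). It was 0.78 without normal 1, 0.59 with RNA integrity as a covariate and 0.51 with the fixed day block, and passed in none of these. Psmd9 and Psmd10 had differences of 0.84 (adjusted p = 0.215) and 0.85 (adjusted p = 0.306), with tumor 2 highest in both, at 8.55 and 8.73.
Of the chaperones that build the 20S alpha ring, Psmg1 was at 7.78, 8.03 and 8.12 in normal mucosa, 8.79, 8.14 and 8.35 in hyperplasia, 7.58, 8.49 and 7.63 in dysplasia and 8.53, 8.60 and 8.35 in tumors. It was high in hyperplasia and tumor, while 2 of the 3 dysplasia samples were below normal mucosa; the tumor difference was 0.52 (adjusted p = 0.329 by limma) and the difference from dysplasia to tumor 0.60 (adjusted p = 0.782). Psmg4 differed by -0.01 and spread from 7.96 to 9.38 within normal mucosa alone.

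The immunoproteasome subunits had the largest median difference of any role at each lesion stage, 0.59 for hyperplasia, 1.63 for dysplasia and 1.15 for tumors, with a wide spread between mice. Without dysplasia 1 and tumor 1 these medians were 0.59, 1.14 and 0.49, and the tumor median was then below the 1.11 of the 19S assembly chaperones. Psmb8, the subunit that takes the place of Psmb5, was at 5.96, 6.54 and 6.90 in normal mucosa, 6.95, 6.99 and 7.24 in hyperplasia, 9.06, 7.14 and 7.60 in dysplasia and 8.72, 6.83 and 7.10 in tumors. Dysplasia 1 and tumor 1 were far above the rest, and tumor 2 was within the range of normal mucosa. The tumor difference was 1.08 (SE 0.52, adjusted p = 0.32 by limma) and the dysplasia difference 1.47 (adjusted p = 0.267).
Psmb9, which takes the place of Psmb6, was at 7.31, 8.18 and 7.40 in normal mucosa, 7.42, 8.63 and 8.36 in hyperplasia, 11.25, 8.95 and 9.09 in dysplasia and 10.49, 8.02 and 7.82 in tumors. All dysplasia samples were above normal mucosa, whereas tumor 2, tumor 3 and hyperplasia 1 were within its range. The dysplasia difference was 2.13, the largest of any proteasome gene in any comparison with normal mucosa (SE 0.72, adjusted p = 0.238 by limma), and the tumor difference 1.15 (adjusted p = 0.449).
Psmb10, which takes the place of Psmb7, was at 7.12, 7.90 and 7.94 in normal mucosa, 8.07, 8.58 and 9.41 in hyperplasia, 10.28, 9.07 and 8.51 in dysplasia and 9.36, 8.75 and 8.32 in tumors. It was the only one of the 3 with every lesion sample above every normal sample. Its differences were 1.03 in hyperplasia, 1.63 in dysplasia (SE 0.46, adjusted p = 0.15 by limma) and 1.15 in tumors (adjusted p = 0.229).
Without dysplasia 1 and tumor 1, the dysplasia differences were 0.90 for Psmb8, 1.39 for Psmb9 and 1.14 for Psmb10 (adjusted p = 0.195, 0.124 and 0.242 by limma). The lesion differences from normal mucosa were 0.66 for Psmb8 (from 1.05), 0.73 for Psmb9 (from 1.26) and 1.02 for Psmb10 (from 1.27), and the tumor differences were 0.49, 0.29 and 0.88. None passed with these samples in or out. Within the day that tumor 1 and normal 2 share, the differences were 2.17, 2.32 and 1.46 for Psmb8, Psmb9 and Psmb10. Within the day that dysplasia 1 shares with tumors 2 and 3, the mean of these tumors was lower than dysplasia 1, with differences of -2.10, -3.33 and -1.75. Both values hold a sample that stood apart, and neither is a test. With RNA integrity as a covariate the tumor differences were 1.70, 2.25 and 1.66 (adjusted p = 0.392, 0.367 and 0.342).

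**Figure D3:**
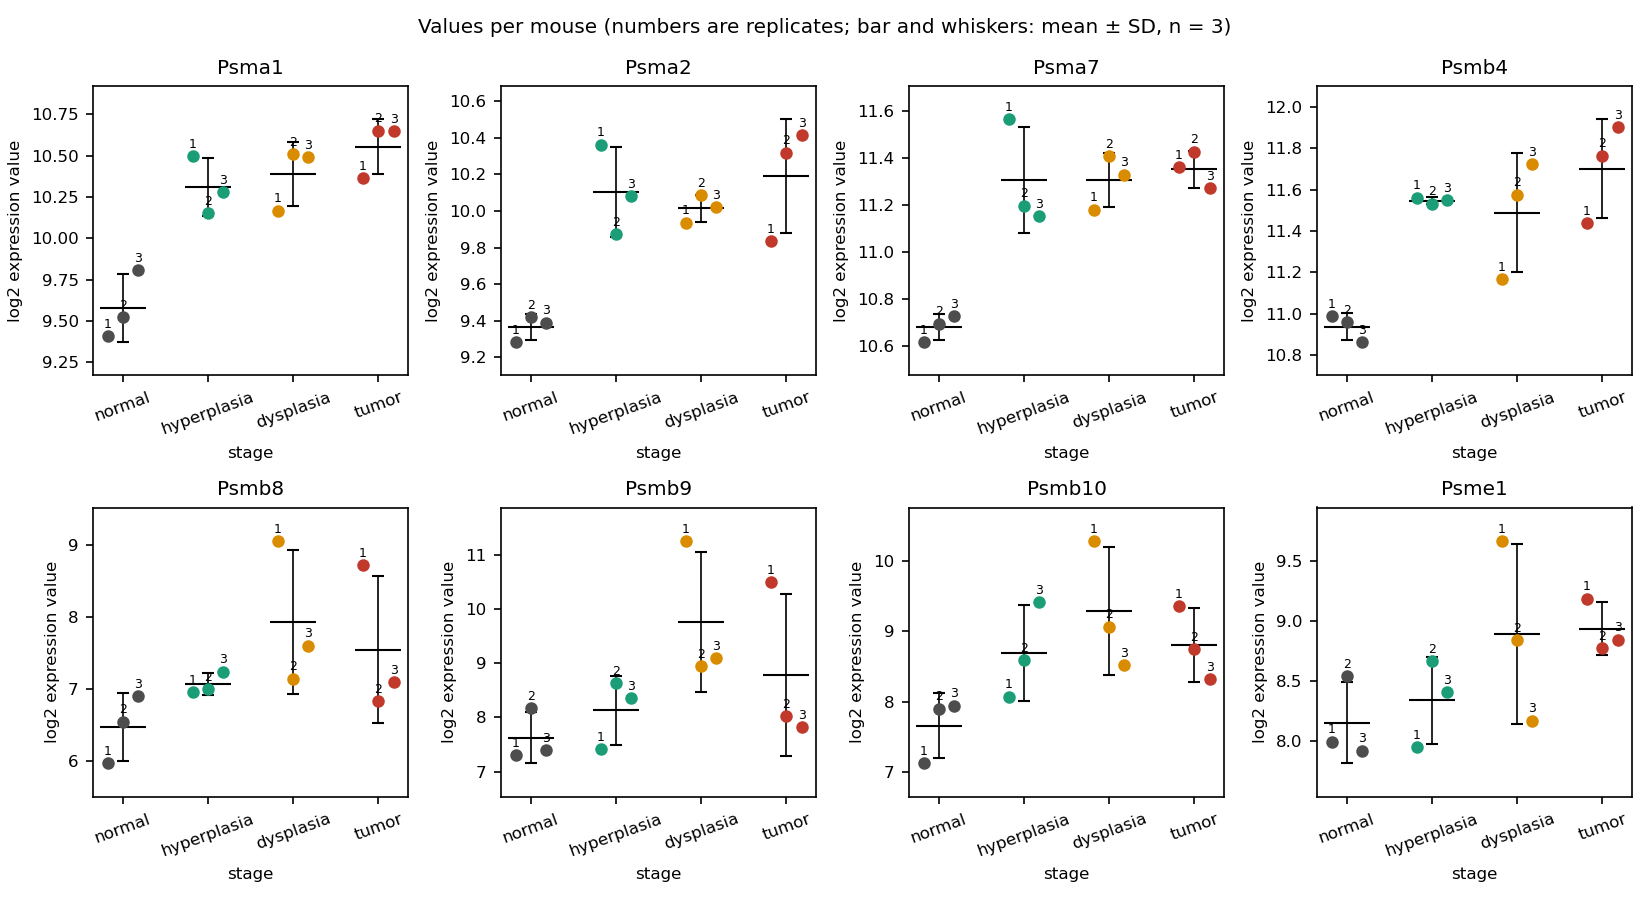
Log2 expression values (y axis) of 8 proteasome genes by stage (x axis), 1 point per mouse with its replicate number, with mean and SD over 3 mice. Psma1, Psma2, Psma7 and Psmb4 have no lesion sample within the normal range, while Psmb8, Psmb9 and Psmb10 are highest in dysplasia 1, at 9.06, 11.25 and 10.28.

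The ratio of each immunoproteasome subunit to a constitutive partner within the same array cancels differences that both share. The ratio of Psmb9 to Psmb6, set to 0 at the mean of normal mucosa, was -0.46, 0.52 and -0.06 in normal mucosa, -0.74, 0.87 and 0.39 in hyperplasia, 3.35, 0.88 and 0.94 in dysplasia and 2.56, 0.10 and -0.24 in tumors. All dysplasia samples lay above normal mucosa (exact two-sided p = 0.1 by permutation, which 3 mice against 3 cannot go below), and tumors 2 and 3 lay within the normal range. Over all 4 stages the exact permutation test gave p = 0.282.
The ratio of Psmb10 to Psmb7 was -0.23, 0.14 and 0.09 in normal mucosa and 2.36, 0.87 and 0.23 in dysplasia, again without overlap, and it was 1.38, 0.32 and -0.01 in tumors (exact permutation test over the stages, p = 0.426). For Psmb8, with no partner of its own analysed here, the mean of Psmb6 and Psmb7 was used. This ratio reached 2.32 in dysplasia 1 and 1.93 in tumor 1 and was between -0.43 and 0.56 in all other samples (exact permutation test, p = 0.463). Over these 3 ratios the adjusted p was 0.463 for each. The mean tumor ratio of Psmb8 fell from 0.61 to -0.05 without tumor 1, and that of Psmb9 from 0.80 to -0.07, so that the tumor means rest on that sample. The ratio of Psmb10 was 0.56 in tumors, and 0.16 without dysplasia 1 and tumor 1.

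**Figure D4:**
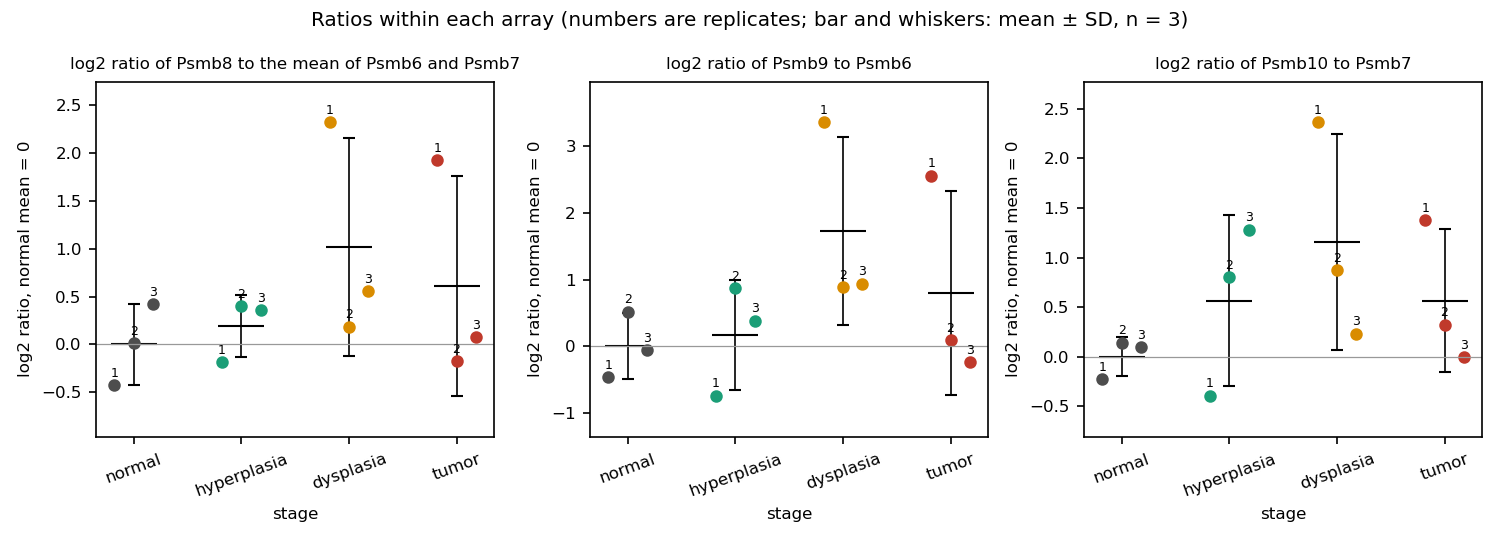
Log2 ratios within each array (y axis, 0 is the mean of normal mucosa) by stage (x axis), 1 point per mouse with its replicate number, with mean and SD over 3 mice. Dysplasia 1 and tumor 1 are the highest samples of each panel, and tumors 2 and 3 lie between -0.24 and 0.32.

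Of the activators, Psme1 followed the immunoproteasome in part. It encodes the alpha subunit of the interferon-inducible ring that opens the core, and it was at 7.99, 8.54 and 7.92 in normal mucosa, 7.94, 8.66 and 8.40 in hyperplasia, 9.67, 8.84 and 8.17 in dysplasia and 9.19, 8.77 and 8.84 in tumors. All tumors were above normal mucosa, with dysplasia 1 the highest and tumor 1 the next. The tumor difference was 0.79 (SE 0.34, adjusted p = 0.263 by limma). Its partner Psme2 was at 7.79, 7.99 and 7.58 in normal mucosa and 7.64, 8.06 and 8.06 in tumors, a difference of 0.13 (adjusted p = 0.781), and was highest in dysplasia 1, at 8.42. Mouse Psme2 has a near-identical copy, Psme2b, with which its probes may share signal, so its values are uncertain. Psme3, the nuclear activator, had a tumor difference of 0.17 (adjusted p = 0.784), with the lowest sample in dysplasia 1, at 8.75. Psme4, an activator known from DNA repair and from the testis, was at 9.09, 8.97 and 9.27 in normal mucosa and 9.33 to 9.52 in lesions, without overlap (tumor difference 0.36, SE 0.16, adjusted p = 0.272). The inhibitor Psmf1 had a tumor difference of 0.21 (adjusted p = 0.692).

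The immunoproteasome and the constitutive subunits were highest in different samples. Among the 12 samples, the 3 immunoproteasome genes had a median Pearson's r of 0.86 with each other, and of 0.79 after the stage means were removed. With the 12 constitutive core subunits their median r was 0.21, and -0.46 after stage means were removed. Without dysplasia 1 and tumor 1 the first of these was 0.68, and 0.43 with stage means removed, and the second 0.39, and -0.18. The core and the 19S subunits had a median r of 0.59 with each other (204 pairs), and of 0.36 without stage means (0.63 and 0.23 without those samples). These correlations are descriptions over 12 arrays that share their normalization. The median of the 29 constitutive subunits of core and cap, relative to normal mucosa, was 0.52 in hyperplasia 1, 0.53 in dysplasia 2, 0.24 in dysplasia 1 and 0.31 in tumor 1. That of the immunoproteasome was 0.42, 1.32, 2.63 and 2.25 in these samples. Dysplasia 1 and tumor 1 were thus the highest of the 9 lesion samples for the immunoproteasome, and both were among the 4 lowest for the constitutive subunits.
Genes with profiles most like Psmb9 over the 12 samples were led by Tap1 (r = 0.974), which encodes a subunit of the peptide transporter that loads MHC class I, then Lgals9, Trafd1, Ogfr, Csf2rb2, Samd9l and H2-K1 (r from 0.945 to 0.913), with Slfn5, Gm10499 and Foxc1 at 0.910 to 0.896. Tap1 and Psmb9 are neighbors on chromosome 17 whose starts are 225 bases apart in the RefSeq table, so the promoter printed above for Psmb9 lies between them, and Psmb8 and Tap2 follow. Psmb8 was most like Lgals9, Trafd1, Ogfr, Samhd1, Tap2, Tmed10, Pilra, Irgm1, Trex1 and Apol9b (r from 0.921 to 0.881). Psmb10 lies on chromosome 8 and was most like Plet1, Clca4c-ps, Trex1, Trafd1, Hcst, Ier3, 1700124L16Rik, Col4a4, Csta3 and Galnt6 (r from 0.912 to 0.880). The median r over all genes was -0.03 for Psmb9 and -0.05 for the other 2. The mean of the 12 constitutive core subunits was most like Selenot (r = 0.969), Rbm45 (r = 0.950) and Gclm (r = 0.940), the last encoding a subunit of the enzyme that starts glutathione synthesis. Serf2, Prxl2a, Wdr36, Riok2, Atp5g3, Med17 and Gmps followed at 0.926 to 0.913. For this core mean, r was 0.03 with Tap1, 0.29 with Tap2, 0.425 with H2-K1 and 0.54 with B2m. After stage means were removed, r with these genes ran from -0.88 to -0.65. The like genes of the immunoproteasome depended in part on dysplasia 1 and tumor 1. Without them, r with these genes ran from 0.442 to 0.845 for Psmb8 and from 0.461 to 0.886 for Psmb9. For Psmb10 it stayed at 0.787 to 0.883. Over the other 10 samples, 2 of the 10 genes of Psmb9, Tap1 (r = 0.882) and Trafd1 (r = 0.886), stayed among its 10 most alike, none of those of Psmb8 and Psmb10 did, and 5 of those of the core did.

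Some genes of class I presentation were highest in dysplasia 1 and tumor 1, as Psmb8 and Psmb9 were. Tap1 was at 7.20, 7.59 and 6.90 in normal mucosa, 9.59 in dysplasia 1 and 9.03 in tumor 1, with a tumor difference of 0.59 (adjusted p = 0.629 by limma). Of 15 genes of class I processing and presentation, 1 was called, B2m, the light chain of class I, in dysplasia and in the mean of the lesions. B2m was at 9.87, 11.20 and 10.34 in normal mucosa and 13.02, 11.70 and 11.73 in tumors (1.68, SE 0.41, adjusted p = 0.0571), and at 12.90 in dysplasia 1. H2-K1, a class I heavy chain, was at 6.95, 7.79 and 6.98 in normal mucosa, 9.99 in dysplasia 1 and 10.02 in tumor 1. H2-D1, another heavy chain, did not follow this pattern, at 6.92, 5.92 and 4.77 in normal mucosa, 6.28 in dysplasia 1 and 4.91 in tumor 1. Its values spread from 3.73 to 7.17 over all samples, in part below the lower quartile of the arrays (5.01 to 5.27), so little can be read from them. The median of the list was 0.58 in tumors and its mean was 8.93 in dysplasia 1, 8.81 in tumor 1 and 7.52 to 8.17 elsewhere.
None of 25 interferon genes was called in any comparison with normal mucosa. Cxcl9, a chemokine induced by interferon gamma, was at 4.94, 5.29 and 4.12 in normal mucosa, 11.81 in dysplasia 1, 9.46 in tumor 1, 7.73 and 4.69 in dysplasia 2 and 3 and 6.92, 4.56 and 7.19 in hyperplasia, with a tumor difference of 1.73 (adjusted p = 0.623 by limma). Irgm1, an interferon-induced GTPase, was at 9.80 in dysplasia 1, 8.57 in tumor 1 and 4.77 to 6.99 elsewhere (tumor difference 1.23, adjusted p = 0.525). Both genes were highest in dysplasia 1 and tumor 1, and in the other samples they did not follow the order of the immunoproteasome values. Ifng itself was at 4.71 to 5.67 in all samples, below the median of every array.
Of 14 T and NK cell markers 2 were called in dysplasia, Cd3g and Cd3d, and the list had a median difference of 0.34 there. Cd3g, of the T cell receptor complex, was at 8.00, 7.88 and 7.51 in dysplasia, 4.48 to 5.56 in normal mucosa and 5.13 in tumor 1, and Cd3d, of the same complex, was at 9.55 in dysplasia 1 and 5.35 in tumor 1. Cd3g fell from dysplasia to tumor. Cd8a, the coreceptor of cytotoxic T cells, was at 6.70 in dysplasia 1 but at 5.46 and 5.22 in dysplasia 2 and 3, within or below the 5.29 to 5.70 of normal mucosa, and Gzmb, their granzyme, differed by -0.02. Of 13 macrophage and dendritic cell markers Tyrobp was called in dysplasia, with 10.03, 8.22 and 9.94 there and 7.88 in tumor 1, and the list had a mean of 7.43 in dysplasia 1, 6.55 in tumor 1 and 6.38 to 6.53 in normal mucosa. None of 5 B cell markers, such as Cd79b and Pax5 (tumor differences -0.54 and -0.48), and none of 9 neutrophil markers, such as Ly6g and Camp (-0.82 and -0.51), was called. In tumor 1 the mean of the T and NK cell markers, 5.34, was within the normal range of 5.34 to 5.40, while Ptprc, which marks all leukocytes, was at 6.59, above the 5.25 to 5.73 of normal mucosa. In dysplasia 1 Ptprc was at 8.95. The part of infiltrating cells in the immunoproteasome values of dysplasia 1 and tumor 1 was not tested.

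**Figure D5:**
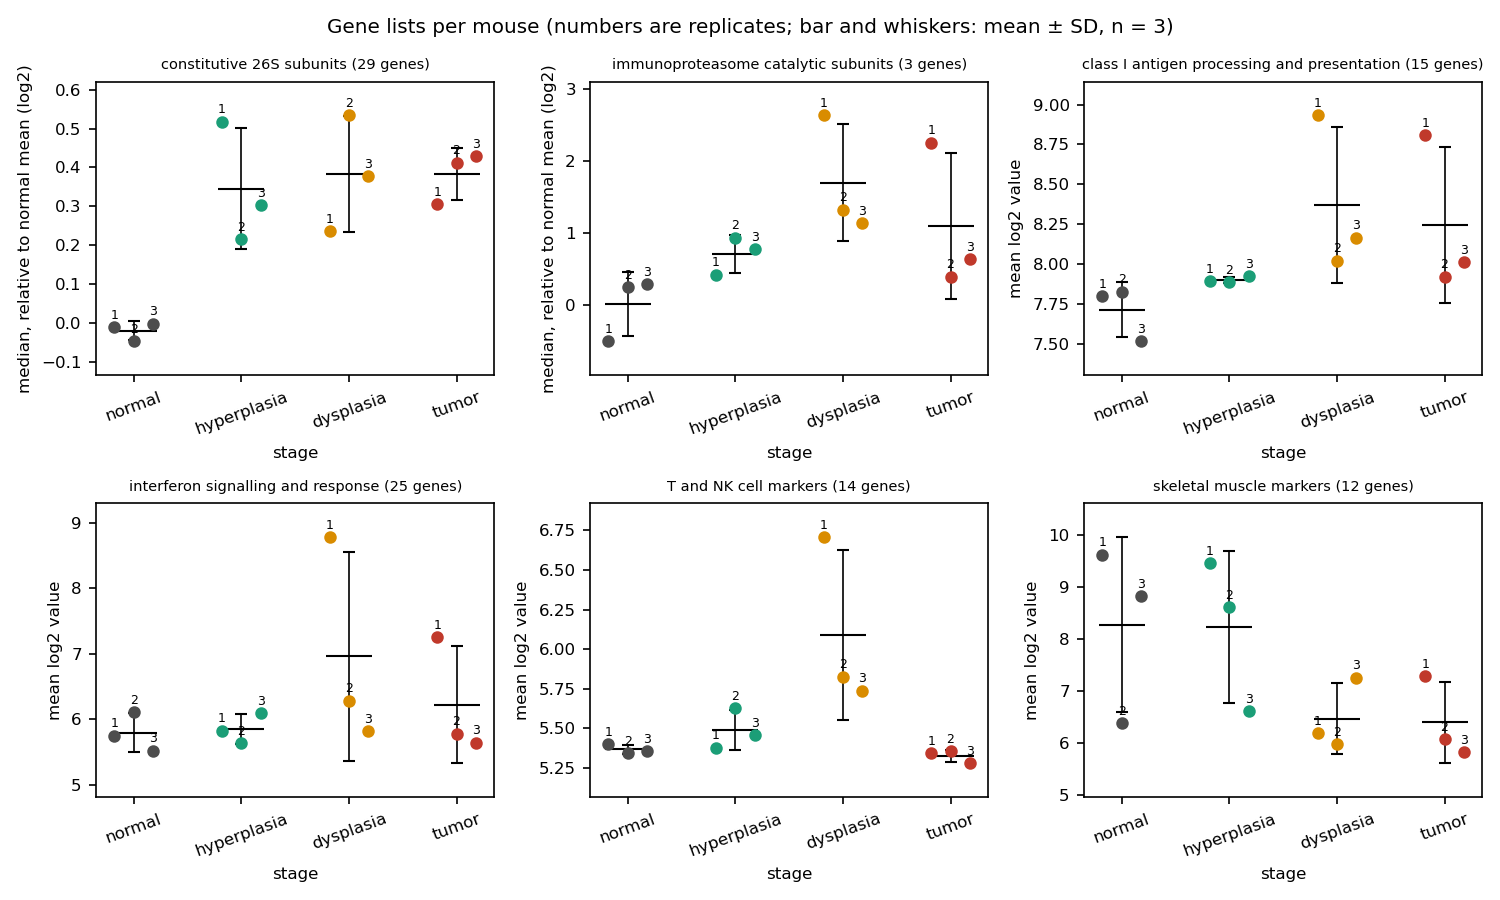
Values of gene lists by stage (x axis), 1 point per mouse with its replicate number, with mean and SD over 3 mice; the first panels give the median over subunits relative to normal mucosa and the others the mean log2 value of a list (y axis). Dysplasia 1 and tumor 1 are highest for the immunoproteasome, class I and interferon lists, while T and NK cell markers are high in dysplasia 1, at 6.71, and not in tumor 1, at 5.34.

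Other cell types also varied in the samples that carry the constitutive differences. Of 12 skeletal muscle markers none was called and their median tumor difference was -2.08, with Acta1 at 12.02, 8.56 and 11.55 in normal mucosa and 9.02, 6.22 and 6.87 in tumors, and Tnnc2 at -3.20 in tumors. Of 7 fibroblast markers Dcn was lower in tumors by 3.06 (SE 0.59, adjusted p = 0.0243 by limma), and of 8 endothelial markers Cdh5 was higher by 1.33 (adjusted p = 0.0294). Of the 12 keratinocyte markers Itga6 and Dsg3 were higher by 1.68 and 1.29 (adjusted p = 0.0239 and 0.0388), and Krt4 was lower by 2.97 (adjusted p = 0.0286). Between normal 2, the normal sample with the lowest muscle markers, and tumor 1, prepared on the same day, 40 of the 46 proteasome genes were higher in the tumor, against 50.1% of all genes, which compares 1 sample with 1. With RNA integrity as a covariate the medians of the lid and of the 20S chaperones were 0.05 and -0.15, from 0.35 and 0.34. The part of muscle RNA in the differences was not tested.
Few genes of related pathways passed the test. Of 12 other proteasome components and partners none was called, and their median tumor difference was 0.25. Pomp, the chaperone that matures the core, was at 9.05, 9.83 and 9.67 in normal mucosa, 10.63, 9.60 and 10.47 in hyperplasia, 10.05, 10.60 and 11.07 in dysplasia and 10.35, 10.81 and 10.70 in tumors. All tumors were above normal mucosa (1.10, SE 0.33, adjusted p = 0.107 by limma), and Sem1, a small lid subunit outside the name pattern, differed by 0.70 (adjusted p = 0.0731). Of 9 genes listed for the regulation of proteasome genes by NFE2L1 none was called, and the part of each gene in it was not tested. The largest differences of that list were -0.77 for Maf and 0.69 for Syvn1, which acts in the breakdown of proteins from the endoplasmic reticulum. Of 5 genes listed for ubiquitin and its activation none was called either, and the part of each gene in it was not tested. The largest differences there were 0.61 for Uba6 and 0.58 for Ufd1. These 3 lists had no member called in the other comparisons with normal mucosa. Of 12 targets of NRF2, the factor of the oxidative stress response, 2 rose in tumors. Slc7a11, the cystine transporter, rose by 3.22 (SE 0.49, adjusted p = 0.00919 by limma), from 7.95, 8.54 and 7.85 in normal mucosa to 10.75, 12.42 and 10.82 in tumors. Gclm rose by 1.63 (SE 0.32, adjusted p = 0.0254). The mean of this list was 9.97 in hyperplasia 1 and 10.33 in tumor 2, the highest samples, against 8.65 to 9.00 in normal mucosa.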

How the data were processed

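RNA of laser-microdissected tongue epithelium from 12 mice was measured, 1 array per mouse, in 4 groups of 3 taken from the sample labels. The deposited log2 values are RMA values, which the authors normalized by quantiles and summarized over custom probe sets named by Entrez gene; software versions and the genome build of the probe sets are not given in the sources used here. Of 24479 probe sets, 1198 have no symbol. The 2 symbols with 2 probe sets kept the brighter one, which gave 24477 genes. Group means were compared with limma 3.58.1 in R 4.3.3 in 1 fit over 12 samples (residual degrees of freedom 8, prior 4.22), with Benjamini-Hochberg adjustment over all genes. Ratios were tested by exact permutation over 369600 assignments with Python 3.11.15 and scipy 1.17.1; Psmb5 was not analysed here, so the planned partner of Psmb8 was replaced. The limma fit was tested on simulated tumor and normal values of 24477 genes, where 33% of the genes given a change of 1 and 91% of the genes given a change of 2 were called, beside 5 false calls. The number of mice per group limits the precision.

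Genes named are members called in any comparison, the immunoproteasome subunits with their partners, the activators, the largest rise and fall of each role, up to 4 called genes of a list or the 2 with the largest difference, and the 10 genes most like each profile. Others, such as Psma4, Psma5, Psma6, Psmb2, Psmd3, Psmd10, Psmd11, Ifng, Tap1, H2-D1, Cd8a, Gzmb and Ptprc, and the pair of promoters from each set, were named after their values were seen. Members and lists were chosen with earlier results of these data known. RNA integrity and preparation days come from the study's supplementary sample table and were used as covariate and block. Promoters are RefSeq sequences of GRCm38.p6. Same-numbered samples did not deviate together, so the numbers were not used as pairs.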

Additional observations from a re-analysis of the deposited data

How the results depend on the processing

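The count of proteasome genes called between tumor and normal mucosa was 1, and 4 with the dimmest 30% of probe sets left out or with an intensity trend. It was 0 with RNA integrity as a covariate, with the preparation day as a fixed block, with a fit of only the groups compared and with the methods' t-test after Benjamini-Hochberg, and 3 without dysplasia 1 and tumor 1, an alternative added after the data were seen. By the methods' t-test without adjustment it was 20, and by a difference over 1 it was 4. Leaving out 1 sample gave 0 to 2: 0 without normal 1, normal 2 or any tumor sample and 2 without dysplasia 1. For the mean of the lesions it was 3, 0 with RNA integrity as a covariate and 23 by the t-test without adjustment, and 0 to 5 with 1 sample left out: 0 without normal 1 or normal 2, 5 without dysplasia 1, and 1 without normal 3, hyperplasia 1, dysplasia 2, dysplasia 3, tumor 2 or tumor 3. With the replicate block 1 gene was called there, Psma1, in place of 3. Correlations of same-numbered samples ranged from -0.113 to 0.112, and the block changed no other count of calls. In hyperplasia the count was 0, 11 by the t-test without adjustment and 2 by a difference over 1. In dysplasia it was 0, 1 without dim probe sets or with an intensity trend, 14 by the t-test without adjustment and 3 by a difference over 1. From hyperplasia to dysplasia a difference over 1 gave 2. From dysplasia to tumor the t-test without adjustment gave 1, and among the 4 stages it gave 12. With the fixed day block, the step from dysplasia to tumor rests on dysplasia 1 against tumors 2 and 3. The Psmb9 difference within that day was -3.33. For the t-test without adjustment, and for fits with samples left out, the share of all genes called is not given here. By limma without adjustment, 16 of 46 proteasome genes were called between tumor and normal mucosa, against 16.9% of all genes. In the mean of the lesions it was 19, against 16.4%. The cause of the changes in these counts was not tested.

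Without tumor 1, and likewise without dysplasia 1 and tumor 1, the tumor ratio of Psmb8 turned from 0.61 to -0.048 and that of Psmb9 from 0.80 to -0.071. With 1 sample left out they ranged from -0.048 to 1.003 and from -0.071 to 1.325, and that of Psmb10 from 0.157 to 0.850. Small differences changed sign. Psma3 in tumors was 0.208 with RNA integrity as a covariate, 0.392 with the fixed day block and -0.359 to 0.069 with 1 sample left out, above 0 without normal 1. In the lesions it was 0.169 with the covariate and -0.259 to 0.169 with 1 sample left out, above 0 without normal 1 or hyperplasia 1. With the fixed day block, which in tumors rests on tumor 1 and normal 2, Psma8 was 0.335, Psme2 -0.350, Psmf1 -0.133 and Psmg4 0.314. Psme3 was -0.069 with the covariate. Psmd8 ranged from -0.202 to 0.097 in tumors and from -0.188 to 0.112 in the lesions, above 0 without normal 2. Psmg4 in tumors was 0.039 with a random day block and -0.311 to 0.398 with 1 sample left out, above 0 without normal 3, tumor 2 or tumor 3. In the lesions it was 0.041 without dysplasia 1 and tumor 1 and -0.323 to 0.386 with 1 sample left out, above 0 without normal 3, hyperplasia 2 or dysplasia 1. The median tumor difference of the 46 genes ranged from 0.21 with the covariate to 0.43 without normal 3, and was 0.28 with quantile normalization repeated, which moved the median of all genes from -0.05 to 0.01. Signal near background limits Psma5, Psma8 and Psmb11.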
